A study of Mus musculus with 8 samples.

Results

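Expression of 10 immediate early genes was compared between livers of wild type mice and of mice labelled as lacking Rictor in the liver. Fos, Jun, Junb, Egr1, Ier2, Ier3, Btg2, Klf6, Myc and Dusp1 were found by gene symbol among 19938 measured genes. Each of the 10 was read by 1 probe set that carried no other gene symbol, so no choice between probe sets was needed. Adult male mice of both groups went without food for 16 h and were then refed for 3 h, with 4 mice in each group and 1 Affymetrix Mouse Gene 1.0 ST array per mouse. The series title gives the knockout as Albumin-Cre with a Rictor LoxP/LoxP allele, in which the albumin promoter drives Cre in hepatocytes. Whether other liver cells kept Rictor was not measured. The controls are labelled wild type, and the labels do not say whether they carried Cre or a floxed allele. Values are RMA expression on the log2 scale, and differences are knockout minus wild type in log2 units with n = 4 in each group.

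Immediate early genes are transcribed within minutes of a hormone, growth factor or stress signal, without the need for new protein. MAP kinases acting through serum response factor and its ternary complex partners, and protein kinases acting through CREB, are the best known inputs, and the transcripts decay quickly. In liver they are known for their rise after hormone stimulation, injury and loss of liver mass. Rictor belongs to mTOR complex 2, which phosphorylates Akt after feeding, and the comparison asks whether these transcripts differ without it in the refed liver.

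The genes fall into 3 roles. Fos, Jun and Junb encode subunits of the dimeric transcription factor AP-1. Egr1 and Klf6 encode zinc finger factors, and Myc encodes a factor that binds DNA with Max. Ier2, Ier3, Btg2 and Dusp1 act largely as modulators: Ier3 affects cell survival under stress, Btg2 restrains proliferation and recruits deadenylases to messenger RNA, and Dusp1 is a phosphatase that switches off MAP kinases.

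The promoter windows of 4 of the genes hold a match to a loose form, TGANNTCA, of the cAMP response element that CREB and related factors bind, and they are printed because CREB is a main input to this class. RefSeq promoter sequences (GRCm38.p6) were at hand for 7 of the 10 genes, all but Egr1, Ier2 and Myc. Each line below holds the 250 bases before the transcript start, 5′ to 3′ on the strand of the gene, with every motif match in capitals. Jun lies at chr4:95052223-95052472, minus strand, Klf6 at chr13:5861239-5861488, plus strand, Btg2 at chr1:134079156-134079405, minus strand and Dusp1 at chr17:26508473-26508722, minus strand. Junb, at chr8:84978749-84978998, minus strand, is added because its window holds the core motif of FoxO factors, which Akt restrains.
Jun: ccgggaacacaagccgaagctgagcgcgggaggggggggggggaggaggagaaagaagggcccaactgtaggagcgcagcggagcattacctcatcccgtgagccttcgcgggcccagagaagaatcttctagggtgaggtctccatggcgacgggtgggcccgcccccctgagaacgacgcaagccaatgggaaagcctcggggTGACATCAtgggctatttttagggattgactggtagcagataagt
Klf6: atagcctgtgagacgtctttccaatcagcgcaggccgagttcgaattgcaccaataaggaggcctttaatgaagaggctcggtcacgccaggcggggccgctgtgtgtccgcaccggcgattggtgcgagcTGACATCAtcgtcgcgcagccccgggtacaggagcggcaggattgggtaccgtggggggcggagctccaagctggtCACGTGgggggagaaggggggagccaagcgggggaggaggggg
Btg2: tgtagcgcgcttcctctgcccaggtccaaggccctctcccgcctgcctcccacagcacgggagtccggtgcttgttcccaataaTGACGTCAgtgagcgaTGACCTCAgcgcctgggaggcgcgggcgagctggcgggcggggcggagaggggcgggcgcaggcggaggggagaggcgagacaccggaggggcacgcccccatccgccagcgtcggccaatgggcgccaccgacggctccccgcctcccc
Dusp1: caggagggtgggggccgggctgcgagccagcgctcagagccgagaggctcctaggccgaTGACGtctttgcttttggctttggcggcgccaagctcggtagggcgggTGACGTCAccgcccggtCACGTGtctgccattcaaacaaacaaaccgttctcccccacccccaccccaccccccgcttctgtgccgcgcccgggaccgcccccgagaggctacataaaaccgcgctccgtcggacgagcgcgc
Junb: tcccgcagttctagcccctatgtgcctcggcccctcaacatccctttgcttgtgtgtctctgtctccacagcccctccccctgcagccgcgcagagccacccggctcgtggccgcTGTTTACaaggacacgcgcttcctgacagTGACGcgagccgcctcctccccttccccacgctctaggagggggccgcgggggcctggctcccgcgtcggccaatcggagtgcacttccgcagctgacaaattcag

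The full cAMP response element TGACGTCA was present in the windows of Btg2 and Dusp1, and in 1.55% of the 32851 promoter windows of the same length. The looser form TGANNTCA, which includes the full element, was found in Jun, Klf6, Btg2 and Dusp1 and in 11.9% of all windows. The shorter core TGACG, which also lies within the full element, was found in Btg2, Dusp1, Fos and Junb and in 17.8% of all windows. The FoxO core TGTTTAC was found in Junb alone among the 7, 135 to 129 bases before its start, and in 3.17% of all windows. The E-box CACGTG was present in Dusp1 and Klf6 and in 6.02% of all windows. The TATA motif TATAAA was present in Fos and in 12.4%. The 7-base AP-1 motif TGANTCA (6.75% of all windows) and the CArG box bound by serum response factor (1.47%) had no match in the 7 windows. All motifs were searched on both strands. A match describes letters in this window and does not show that a factor was bound. Sites farther upstream, and the promoters of Egr1, Ier2 and Myc, were not searched, so a missing match covers these windows alone.

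The labels were checked first. The Rictor probe set had a mean of 9.40 ± 0.19 (SD, n = 4) in wild type and 9.45 ± 0.22 (SD, n = 4) in knockout livers, with a difference of 0.05 and a 95% interval from -0.24 to 0.33. The labels and annotation do not say which exons it covers, so it does not check the genotype, and the groups are named by their labels. The 8 hepatocyte markers had a mean level from 13.87 to 13.95 on every array. Medians over all probe sets ran from 6.90 to 7.03. The arrays numbered 1 stood apart. On the first principal component, with 35.5% of the variance, wild type 2 to 4 lay between -15.6 and -12.9 and knockout 2 to 4 between 18.4 and 20.4, whereas knockout 1 lay at -12.9 and wild type 1 at -2.19. Whether the labels of these 2 arrays were exchanged was not tested and cannot be settled from Rictor, so every difference below holds for the groups as labelled. Values without both arrays are given where they change a call. Both were left out after their values were seen, so no p or pass without 1 or both of them, for any gene below, is a test. Many of all genes passed without knockout 1, without both arrays or with array weights, so a pass there is not particular to a gene. Those counts are given at the end.

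None of the 10 genes had a limma p under 0.05 after Benjamini-Hochberg adjustment over all fitted probe sets, and 1, Ier2, had an unadjusted limma p under 0.05. Of all 19938 genes 0 (0%) passed, while 3.82% were higher and 6.53% lower in the knockout at an unadjusted p under 0.05. Of these unadjusted changes 36.9% were thus higher, a share that was 46.4% after a further quantile normalization and 52.9% with arrays centred on their median. The means of 8 of the 10 genes were higher in the knockout, as were those of 43.1% of all genes, with a median difference of 0.06, against a median of -0.02 over all genes. The variation from liver to liver within a group was large for 4 of the 10: the within-group SDs of Egr1, Myc, Jun and Dusp1 exceeded those of 99.8%, 99.6%, 99.4% and 93.8% of genes. The smallest p that an exact permutation test of 4 against 4 can give is 0.0286.

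**Figure D1:**
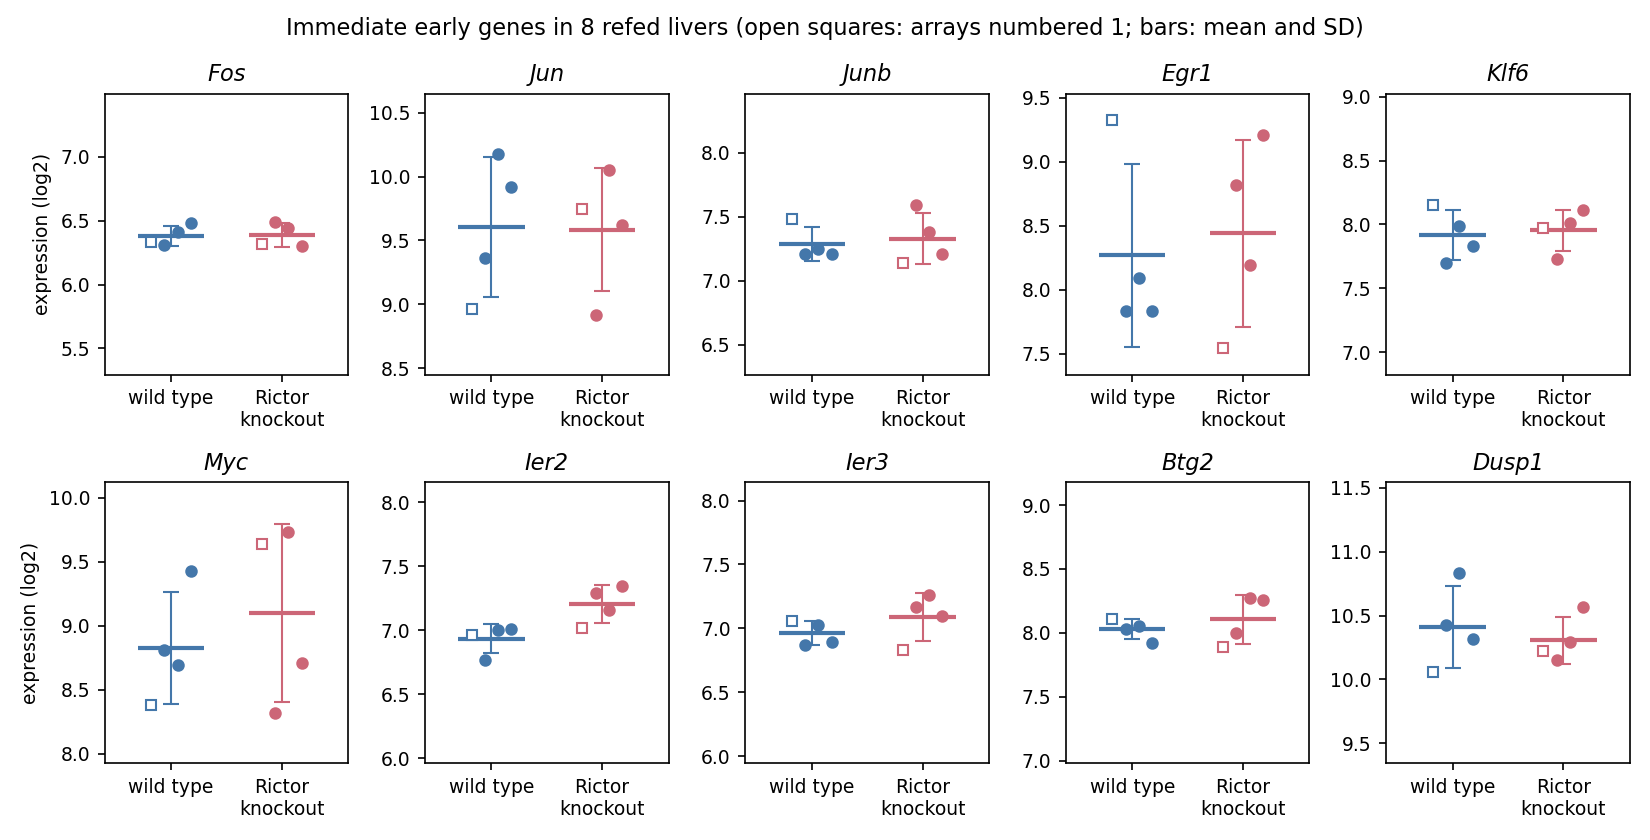
Expression (log2, vertical axes, each spanning the same width) of the 10 genes on the 4 wild type arrays (blue) and the 4 Rictor knockout arrays (red); points are single mice, open squares the arrays numbered 1, and bars the group mean with its SD. Egr1, Myc and Jun spread over more than 1 log2 unit, Fos over 0.19, and Ier2 is the gene whose groups do not overlap.

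Among the AP-1 subunits, Fos varied least from liver to liver. It read 6.33, 6.31, 6.41 and 6.48 on wild type arrays 1 to 4 and 6.32, 6.49, 6.44 and 6.30 on knockout arrays 1 to 4. The groups overlapped almost completely, and the difference was 0.01 (SE 0.08), with a 95% interval from -0.16 to 0.17. Fos was the 1 gene of the 10 that lay below the median of all probe sets on every array, and differences near the background of an array read smaller than they are. The within-group SD of Fos, 0.086, was larger than that of 14.6% of genes.

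Jun gave the opposite picture, with a wide spread and no difference between the group means. Wild type arrays 1 to 4 read 8.96, 9.36, 10.18 and 9.92, and knockout arrays 1 to 4 read 9.75, 8.92, 10.05 and 9.62. Each group held low and high livers, so that the range of 1.26 log2 units over the 8 livers, or 2.40-fold, lay within the groups. The difference was -0.02 (SE 0.27), and its 95% interval from -0.61 to 0.57 spans ratios of knockout to wild type from 0.657 to 1.48. With array weights the sign turned (0.14), and without both arrays numbered 1 the difference was -0.29 (limma adjusted p = 0.609). The TGANNTCA match in the printed Jun window lies 45 to 38 bases before the start.

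Junb read 7.48, 7.21, 7.25 and 7.21 in wild type and 7.14, 7.59, 7.38 and 7.21 in knockout livers. Wild type 1 stood above the other 3 of its group, and knockout 2 was the highest of all. The difference was 0.04 (SE 0.11, 95% interval from -0.19 to 0.28). Jun was lowest on knockout 2 and wild type 1, the 2 arrays on which Junb was highest, while both were above their means on knockout 3.

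Of the other transcription factors, Egr1 varied most of all 10 genes. It read 9.33, 7.83, 8.09 and 7.83 on wild type arrays 1 to 4 and 7.54, 8.82, 8.19 and 9.21 on knockout arrays 1 to 4. The highest and the lowest liver, wild type 1 and knockout 1, are those that stood apart from their groups, and they differ 3.45-fold. The group means, 8.27 ± 0.72 (SD, n = 4) and 8.44 ± 0.73 (SD, n = 4), differed by 0.17 (SE 0.37; limma adjusted p = 0.913), with a 95% interval from -0.64 to 0.98. Without wild type 1 the difference was 0.52, and without knockout 4 it was -0.086. Without both arrays numbered 1 it was 0.82 (limma adjusted p = 0.0259), the only one of 18 alternatives in which Egr1 passed. Those arrays were left out after their values were seen and lay toward the other group, so this p is not a test.

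The insulin-repressed gene Igfbp1 split the livers in the same way, a comparison chosen after the values were seen. Igfbp1 read 10.04 on wild type 1 and 10.10, 10.10 and 9.65 on knockout 2 to 4, and between 7.29 and 7.76 on the other 4 arrays, of which knockout 1 was the highest. The difference was 1.39 (limma adjusted p = 0.435). It was 2.62 with both arrays numbered 1 left out (limma adjusted p = 6.43e-07). As for Egr1, this p is not a test, since those arrays were left out after their values were seen. The 4 arrays with high Igfbp1 were the 4 with the highest Egr1, although Egr1 on knockout 3 (8.19) was only just above wild type 3 (8.09). Since Igfbp1 falls into 2 separate clusters, no correlation is given. Macrophage and Kupffer cell markers also varied between livers, and all 10 of them had a within-group SD above that of 90% of genes. Their mean level was highest on knockout 4 (10.18) and wild type 1 (9.80), the 2 livers with the highest Egr1, yet it was 9.65 on knockout 1, where Egr1 was lowest, and 9.28 and 9.26 on knockout 2 and 3. The part of these cells in the Egr1 values was not tested, and in whole liver fewer cells of a type and less RNA per cell cannot be told apart.

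Myc had a spread close to that of Egr1 but in other livers. It read 8.38, 8.81, 8.69 and 9.43 in wild type and 9.64, 8.32, 9.73 and 8.71 in knockout livers. Wild type 4 and knockout 1 and 3 were high and the other 5 livers low, a range of 2.66-fold over the 8 livers. The difference of 0.27 (SE 0.30, 95% interval from -0.38 to 0.93) was smaller than the spread, and it was -0.058 without both arrays numbered 1 and 0.53 without knockout 2. On knockout 1 Myc was high and Egr1 lowest, and on wild type 1 Myc was low and Egr1 highest.

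Klf6 read 8.15, 7.70, 7.99 and 7.83 in wild type and 7.97, 7.73, 8.01 and 8.11 in knockout livers. The groups covered nearly the same range, and the difference was 0.04 (SE 0.12, 95% interval from -0.21 to 0.29).

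Ier2 was the 1 gene of the 10 whose groups did not overlap. It read 6.96, 6.77, 7.0 and 7.01 on wild type arrays and 7.02, 7.29, 7.16 and 7.35 on knockout arrays. The separation was narrow, with 0.01 between wild type 4 and knockout 1, and all 4 knockout livers were above all 4 wild type livers. Over all genes 1.81% separated with the knockout higher and 2.61% with the knockout lower. The difference of 0.27 (SE 0.09, 95% interval from 0.07 to 0.48), or 1.21-fold, did not pass (limma unadjusted p = 0.0130, adjusted p = 0.305). The exact two-sided permutation p was 0.0286, the smallest possible, which every gene that separates the groups reaches. The difference lay between 0.22 and 0.35 over 18 alternatives, with limma adjusted p from 0.0480, with array weights, to 0.673. With both arrays numbered 1 left out it was 0.34 (limma adjusted p = 0.0632). Without wild type 2, the lowest array, the unadjusted limma p was 0.0508.

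Ier3 and Btg2 showed small positive differences with overlapping groups. Ier3 read 7.06, 6.87, 7.03 and 6.89 in wild type and 6.83, 7.17, 7.26 and 7.10 in knockout livers, with a difference of 0.13 (SE 0.10, 95% interval from -0.09 to 0.35). Knockout 1 was the lowest of the 8 livers and knockout 2 to 4 were above all wild type livers. Btg2 read 8.11, 8.03, 8.05 and 7.92 in wild type and 7.89, 8.0, 8.27 and 8.26 in knockout livers, with a difference of 0.07 (SE 0.10, 95% interval from -0.15 to 0.30). Knockout 3 and 4 were above every wild type liver, and knockout 1 was again the lowest. With both arrays numbered 1 left out, Ier3 differed by 0.25 and Btg2 by 0.18 (limma adjusted p = 0.139 and 0.405).

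Dusp1, the MAP kinase phosphatase, was the 1 gene besides Jun with a lower mean in the knockout. It read 10.06, 10.43, 10.83 and 10.32 in wild type and 10.22, 10.15, 10.29 and 10.57 in knockout livers. The highest and the lowest value both belonged to wild type livers, and the knockout values lay between them. The difference was -0.11 (SE 0.15, 95% interval from -0.43 to 0.22), and without wild type 3 it was 0.033.

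**Figure D2:**
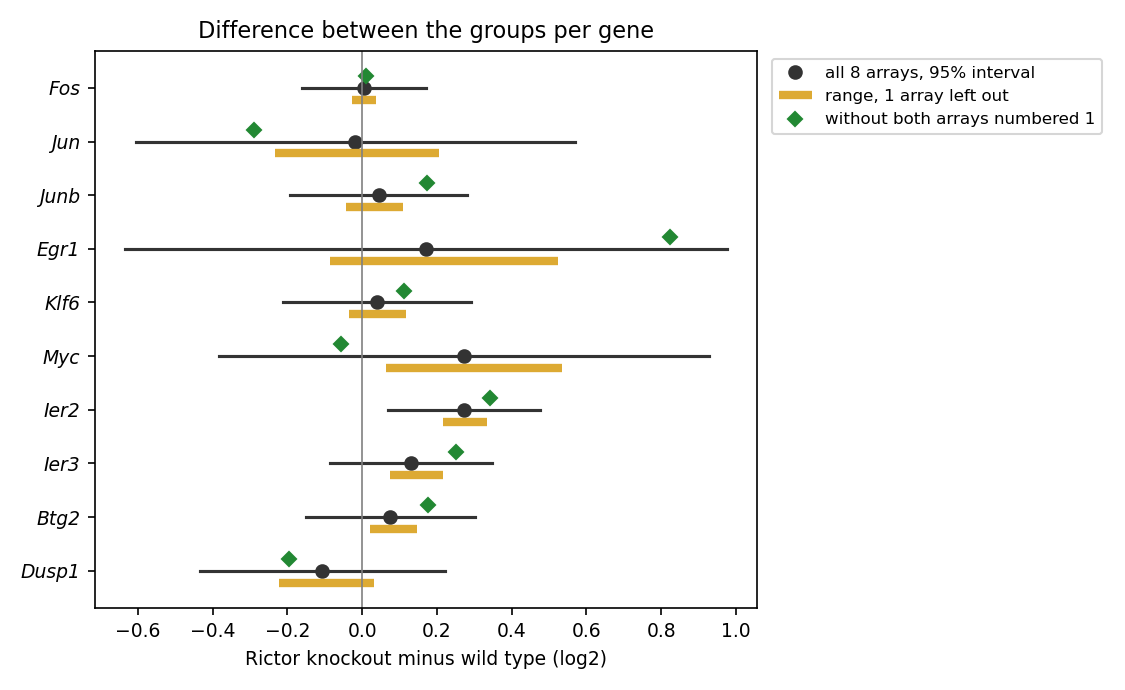
Difference between the groups (knockout minus wild type, log2, horizontal axis) for each of the 10 genes: black points with the 95% interval of the fit on all 8 arrays, yellow bars the range when 1 array is left out, and green diamonds the value without both arrays numbered 1. The interval of Ier2, from 0.07 to 0.48, is the 1 interval that does not include 0, and Egr1 has the widest, from -0.64 to 0.98.

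The 10 genes did not all vary in the same direction from liver to liver, though 8 livers leave each correlation uncertain. Of the 45 pairs, 26 had a positive and 19 a negative Pearson correlation over the 8 livers, with a median r of 0.12. Ier3 and Btg2 had r = 0.77 (Spearman rho = 0.71; exact permutation p = 0.0267 and 0.0576; adjusted p = 0.537 and 0.518 over the 45 pairs), and r = 0.50 without the 2 arrays farthest from the median of Ier3. Egr1 and Myc had r = -0.70 (rho = -0.62; exact permutation p = 0.0537 and 0.115; adjusted p = 0.537 and 0.541), and r = -0.65 without the 2 farthest arrays. Jun and Myc had r = 0.69 (rho = 0.60, exact permutation p = 0.0642 and 0.132, adjusted p = 0.537 and 0.541), and r = 0.29 without the 2 farthest arrays. Leaving out the arrays farthest from the median of a gene narrows its range, which can in itself lower r. Ier2 and Ier3 had r = 0.67 (rho = 0.57, exact permutation p = 0.0730 and 0.151, adjusted p = 0.537 and 0.567), and r = 0.63 without the 2 farthest arrays. Junb and Ier3 had r = 0.68 (rho = 0.81; exact permutation p = 0.0635 and 0.0218; adjusted p = 0.537 and 0.490) and r = 0.88 without the 2 farthest arrays.

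No pair passed the adjustment over the 45 pairs by either coefficient, while 1 had an unadjusted exact p under 0.05 by Pearson and 3 by Spearman. Those 3 were Junb with Ier3, Junb with Egr1 and Egr1 with Ier3. Junb and Egr1 had r = 0.62 and rho = 0.81 (exact permutation p = 0.0964 and 0.0218; adjusted p = 0.537 and 0.490), and r = 0.24 without the 2 farthest arrays. Egr1 and Ier3 had r = 0.60 and rho = 0.74 (exact permutation p = 0.119 and 0.0458; adjusted p = 0.537 and 0.518), and r = 0.78 without the 2 farthest arrays. Jun and Junb had r = -0.65 (rho = -0.38, exact permutation p = 0.0837 and 0.360, adjusted p = 0.537 and 0.852). They had r = 0.49 without wild type 1 and knockout 2, so the negative sign was not seen without those 2 livers. Jun and Dusp1 had r = 0.64 (rho = 0.60; exact permutation p = 0.0876 and 0.132; adjusted p = 0.537 and 0.541), and r = 0.25 without the 2 farthest arrays. With 4 livers per group no correlation within a group is given. The r of the deviations from the group means had the same sign as the pooled r in each of these pairs.

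**Figure D3:**
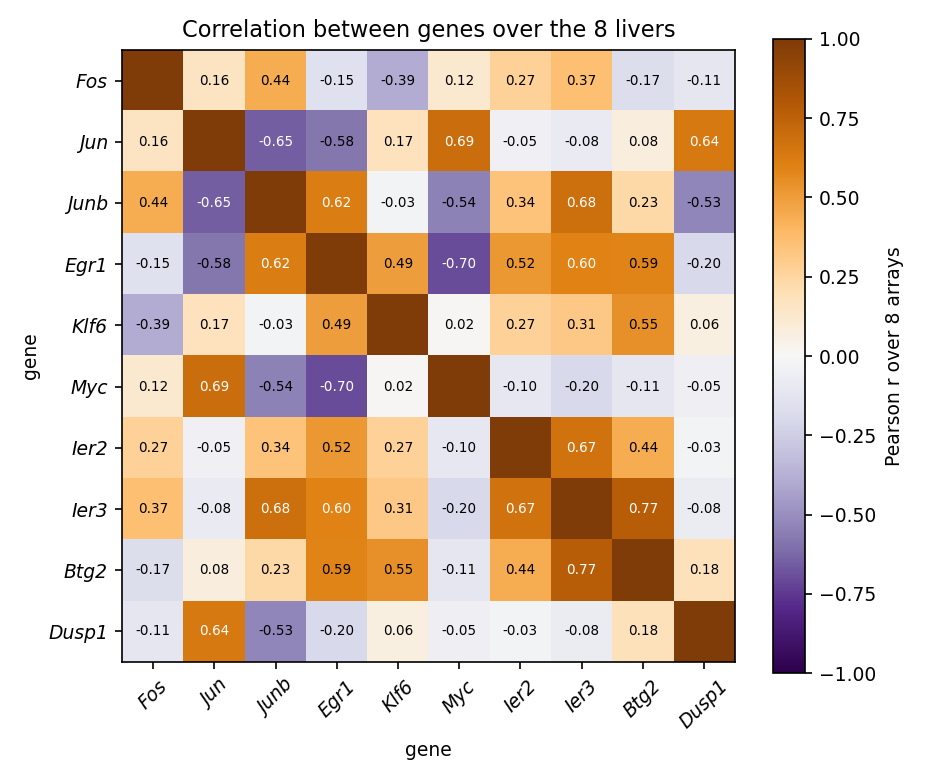
Pearson correlation over the 8 livers between each pair of the 10 genes (both axes; orange positive, purple negative, values printed in the cells). The block of Ier2, Ier3 and Btg2 is positive, with 0.77 the highest value, and Myc against Egr1 is the lowest, at -0.70.

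Single livers differed in which genes were high. On knockout 3, 8 of the 10 genes lay above their mean over the 8 livers, and on knockout 4 there were 7. On wild type 2, 1 of the 10, Dusp1, lay above it. The remaining arrays had between 3 and 5.

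**Figure D4:**
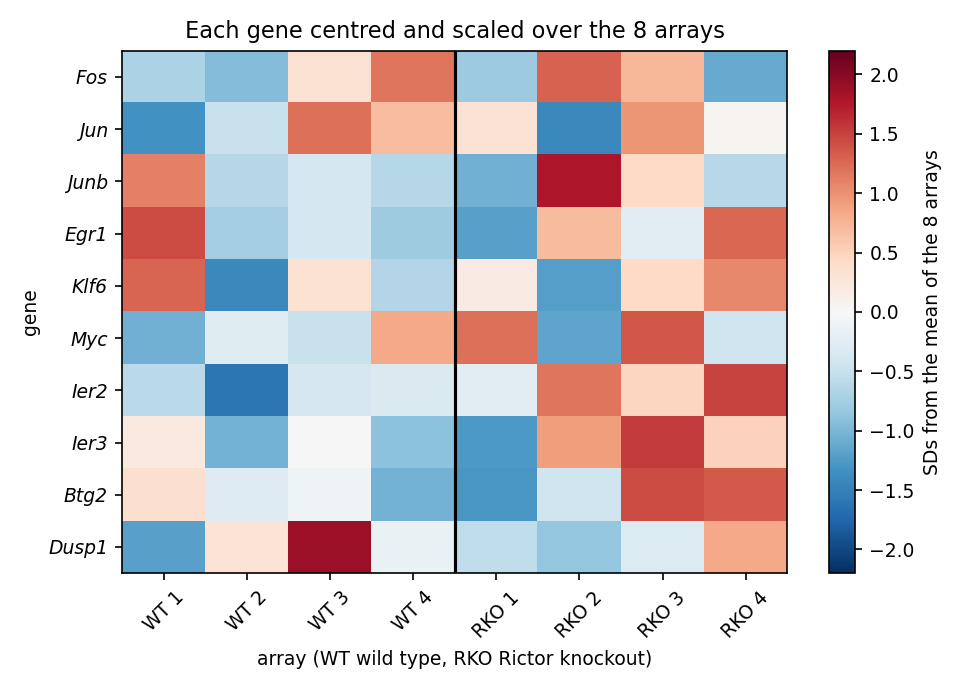
Level of each of the 10 genes (rows) on each array (columns; WT wild type, RKO Rictor knockout), as the number of SDs from that gene's mean over the 8 arrays (red above, blue below). RKO 3 is red for 8 genes and WT 2 for 1, Dusp1.

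The genes most like the 10 were sought by correlation with the mean of their standardised values over the 8 livers. The highest were Hps4 (r = 0.988, rho = 0.976), Mfn2 (r = 0.987, rho = 0.976), Khnyn (r = 0.971, rho = 0.976), Hlcs (r = 0.970, rho = 0.976) and Rnf215 (r = 0.970, rho = 0.929). The lowest were Sgk2 (r = -0.985, rho = -1) and Cyp2c29 (r = -0.977, rho = -0.976). All 7 had an r beyond 0.9 in size without the 2 farthest arrays as well. They were picked as the extremes of 19938 genes over 8 livers, so these values carry no p. None of the 7 passed between the groups (limma adjusted p from 0.528 to 0.887). With both arrays numbered 1 left out Khnyn did (0.42; limma adjusted p = 0.0489). The mean itself describes the 10 genes unevenly: r with the mean of the other 9 was 0.815 for Ier3 and 0.661 for Btg2, but 0.0868 for Jun and -0.190 for Myc.

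Further members of the same response were read from lists around the 10 genes. Of 14 genes whose proteins belong to the AP-1 family or related leucine zipper factors, 0 passed in limma. At an unadjusted p under 0.05, 2 were higher and 1 lower (3.82% and 6.53% of all genes). Jund, the AP-1 subunit least dependent on induction, read 9.61, 9.56, 10.41 and 10.11 in wild type and 10.48, 10.20, 10.49 and 10.23 in knockout livers, a difference of 0.43 (SE 0.17; limma adjusted p = 0.384). Wild type 3 lay within the range of the knockout livers and the other 3 wild type livers below it. Without both arrays numbered 1 the difference was 0.28. Mafk, a small Maf factor, differed by 0.26 and Atf7, a CRE-binding factor, by -0.26 (limma adjusted p = 0.439 and 0.389). Atf7 passed with both arrays numbered 1 left out, at -0.36 (limma adjusted p = 0.0430), and Mafk, at 0.39, did not (limma adjusted p = 0.0526). Fosb and Fosl2 differed by -0.04 and -0.005.

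Of 45 other immediate early genes 0 passed, with a median difference of 0.03. An unadjusted limma p under 0.05 was found for 1 higher and 3 lower (3.82% and 6.53% of all genes). Mcl1, which encodes a survival factor of the Bcl-2 family, read 10.26, 10.24, 10.17 and 10.29 in wild type and 10.08, 9.63, 9.87 and 10.01 in knockout livers, a difference of -0.34 (SE 0.11; limma adjusted p = 0.263). Cebpb, a liver transcription factor that hormones induce, read 8.81, 8.70, 8.76 and 8.61 in wild type and 8.83, 8.97, 9.39 and 9.15 in knockout livers, a difference of 0.37 (SE 0.12; limma adjusted p = 0.279). Both genes, named for their small p, separated the groups. Over the 45 genes, 1 did so with the knockout lower and 1 with it higher (2.61% and 1.81% of all genes). Plk2, a polo-like kinase, differed by -0.38 (SE 0.12; limma adjusted p = 0.279) with overlapping groups. With array weights Cebpb and Plk2 passed, and Mcl1, Cebpb and Plk2 did so without knockout 1. All 3 also passed without both arrays numbered 1 (-0.40, 0.48 and -0.52, limma adjusted p = 0.0465, 0.0267 and 0.0147). As for Egr1, the passes without knockout 1 or without both arrays are not tests, and many other genes passed in these settings.

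This wider list also held genes with a large spread within groups: 13 of the 45 had a within-group SD above that of 90% of genes, led by Phlda1, Gadd45g and Id3. Gadd45g, a growth arrest and stress gene, followed Myc. It read 8.08, 8.57, 8.32 and 9.06 in wild type and 9.70, 8.14, 9.37 and 8.68 in knockout livers. The 2 genes shared their 3 highest livers, knockout 1, knockout 3 and wild type 4, and their 2 lowest, wild type 1 and knockout 2. Pearson's r was 0.96 and Spearman's rho 0.93 (exact permutation p = 0.000372 and 0.00223), and r was 0.95 without knockout 1 and 3. This was the smallest Pearson p of 590 relations between the 10 genes and 59 others, a family added after seeing the data. None passed the adjustment over the 590 by either coefficient (adjusted p = 0.117 and 0.329 for this pair), and 54 had an unadjusted exact p under 0.05 by Pearson and 46 by Spearman. Klf2, a zinc finger factor, had r = 0.94 and rho = 0.95 with Jun (exact permutation p = 0.000397 and 0.00114, adjusted p = 0.117 and 0.224). Without wild type 1 and knockout 2 r was 0.93. Klf2 hardly varied, however. It spanned 0.17 log2 units (1.13-fold) over the 8 livers, against 1.26 for Jun, and its within-group SD was larger than that of 3.75% of genes.

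Feedback inhibitors of the MAP kinases showed 1 gene of 15 with an unadjusted limma p under 0.05, higher in the knockout (3.82% of all genes). Dusp6, the phosphatase specific for ERK, read 10.74, 10.40, 10.22 and 10.19 in wild type and 10.27, 10.72, 11.26 and 10.99 in knockout livers, a difference of 0.42 (SE 0.19; limma adjusted p = 0.435). Wild type 1 was high and knockout 1 low within their groups, as for Egr1. Dusp6 passed without knockout 1, and without both arrays numbered 1 it differed by 0.72 (limma adjusted p = 0.00510). As for Egr1, neither pass is a test, and many other genes passed in these settings. Dusp7, a further ERK phosphatase, differed by -0.20 and the Sprouty gene Spry4 by 0.27 (limma adjusted p = 0.498 and 0.533).

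Of the kinases and factors that act upstream, 29 of 37 listed genes were measured here, and 0 passed. The median difference was -0.09 with 8 of the 29 higher, against 43.1% of all genes. At an unadjusted limma p under 0.05, 2 were higher and 4 lower (3.82% and 6.53% of all genes). Map2k2, which encodes the ERK kinase MEK2, read 10.49, 10.42, 10.71 and 10.41 in wild type and 10.76, 11.10, 11.13 and 10.88 in knockout livers, a difference of 0.46 (SE 0.11; limma adjusted p = 0.139). Mapk14, the kinase p38 alpha, differed by -0.27 and Crtc2, a coactivator of CREB, by -0.52 (limma adjusted p = 0.264 and 0.144). All 3 separated the groups, but they were named for the smallest p of the list, which favours such genes. Over the 29 genes, 2 separated with the knockout higher and 3 with it lower (1.81% and 2.61% of all genes). Map2k2 and Crtc2 passed with array weights and without knockout 1. Without both arrays numbered 1 all 3 passed, with differences of 0.52, -0.33 and -0.67 for Map2k2, Mapk14 and Crtc2 (limma adjusted p = 0.0116, 0.0294 and 0.00325). As for Egr1, the passes without knockout 1 or without both arrays are not tests, and many other genes passed there too. Crtc2 was known from earlier results of these data. Srf, the serum response factor gene, and Creb1 differed by -0.04 and -0.06.

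Around Myc, 0 of 10 genes of the Max network passed. At an unadjusted limma p under 0.05, 4 were lower and 0 higher (6.53% and 3.82% of all genes). Mxd1, an antagonist of Myc that also pairs with Max, read 8.74, 8.82, 8.77 and 8.84 in wild type and 8.66, 8.58, 8.28 and 8.43 in knockout livers. The difference was -0.30 (SE 0.10, limma adjusted p = 0.279), and the groups did not overlap. Of the 10 genes of the network, 2 separated with the knockout lower and 0 with it higher (2.61% and 1.81% of all genes). Mxd1 passed when arrays were weighted (limma adjusted p = 0.0393) and, at -0.38, with both arrays numbered 1 left out (limma adjusted p = 0.0448). Mlx, a partner of the carbohydrate-responsive factor ChREBP, differed by -0.36 and Max by -0.32 (limma adjusted p = 0.307 and 0.439). In both the wild type livers and knockout 1 lay above knockout 2 to 4, and both passed without knockout 1 and when both arrays numbered 1 were left out (-0.51 and -0.50; limma adjusted p = 0.00450 and 0.0125). Mlx also passed with array weights. The passes without knockout 1 or without both arrays are, as for Egr1, not tests. Of 14 genes that Myc is known to activate, 0 passed and 8 had a higher mean (43.1% of all genes). At an unadjusted limma p under 0.05, 1 was higher and 1 lower (3.82% and 6.53% of all genes). Nop58, a nucleolar protein of ribosome assembly, differed by 0.36, Npm1 by 0.29 and Polr1b, an RNA polymerase I subunit, by -0.39 (limma adjusted p = 0.255, 0.476 and 0.349). Nop58 passed with array weights (limma adjusted p = 0.0407), and Polr1b passed without both arrays numbered 1 (-0.61; limma adjusted p = 0.00525).

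**Figure D5:**
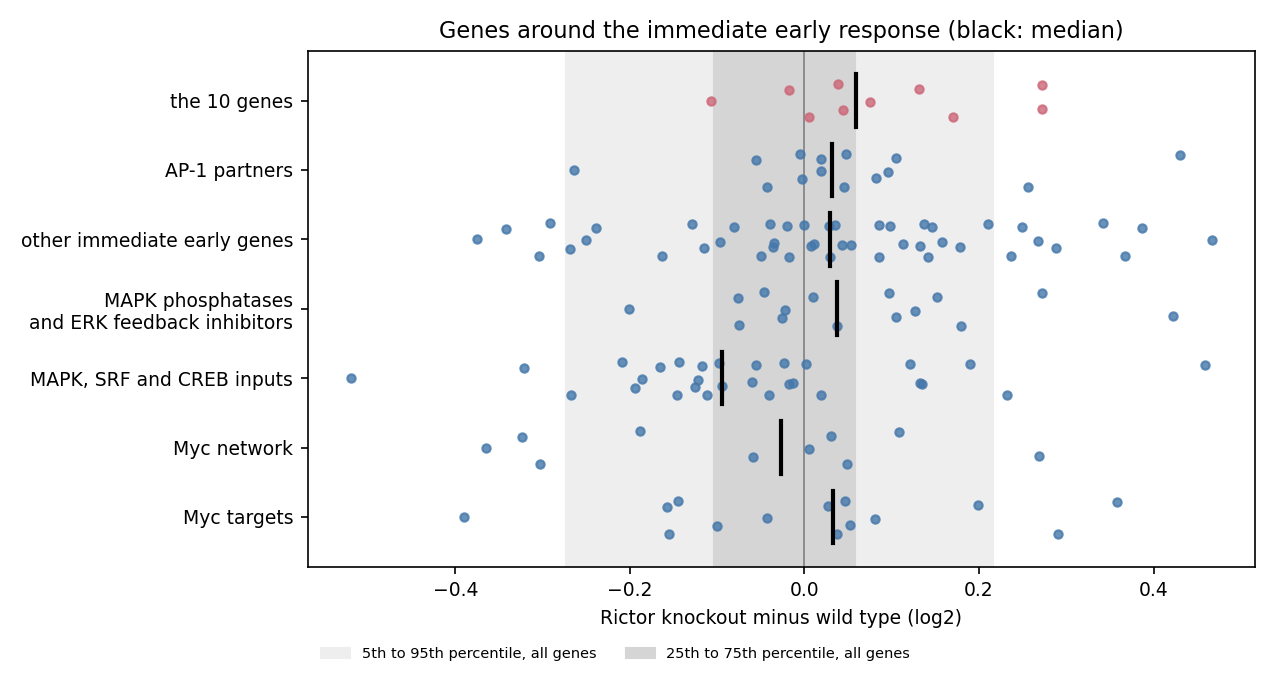
Difference between the groups (knockout minus wild type, log2, horizontal axis) for the 10 genes (red) and the genes of 6 lists around them (blue), 1 point per gene with the list median in black; the grey bands span the 25th to 75th and the 5th to 95th percentile of all 19938 genes. The medians lie between -0.09 and 0.06, and no point passed the adjusted threshold.

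Markers of other cell types were compared because whole liver was measured. Of 66 markers in 10 lists, 60 were measured and 0 passed. An unadjusted limma p under 0.05 was found for 1 higher (C1qa, of the macrophage list) and 4 lower, against 3.82% and 6.53% of all genes. The mean level of the macrophage list ran from 9.02 to 9.80 in wild type and from 9.26 to 10.18 in knockout livers. That of the endothelial list ran from 10.25 to 10.48 and from 10.23 to 10.50, and that of the neutrophil list from 5.80 to 5.90 and from 5.80 to 5.91. All 4 B cell markers had a lower mean in the knockout, with a median difference of -0.21. Their mean level ran from 6.21 to 6.73 in wild type and up to 6.49 in knockout livers. All 6 T and NK cell markers had a lower mean too, with a median of -0.12 and a mean level from 6.48 to 6.69 and from 6.29 to 6.59. Over all genes 43.1% had a higher mean in the knockout. On every array the mean level of both lists lay below the median of all probe sets (6.90 to 7.03). In both lists wild type 3 and 4 lay within the range of the knockout livers, and only wild type 1 and 2 lay above it. In each of these 2 lists 1 marker had an unadjusted limma p under 0.05. Their part in the differences of the 10 genes was not tested.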

How the data were processed

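Liver RNA of 8 mice was measured on 1-colour arrays. The deposited table holds 35556 probe sets, and the authors' values were taken as log2, since the labels give no base. The submitters' processing notes name RMA, Affymetrix Expression Console and Partek, with no role or order. The build used for the probe sets is not given here. RMA equalises arrays, so it hides a shift common to most genes.

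Probe sets were named from the platform annotation, with symbols updated by Entrez identifier (21698 of 21789 with 1 symbol matched); 1621 had several symbols and 12146 none. A gene was read from its brightest probe set. A linear model (limma 3.58.1, R 4.3.3; lmFit, eBayes with a trend) was fitted over 23410 annotated probe sets, two-sided, with Benjamini-Hochberg adjustment and a threshold of 0.05; SEs and 95% intervals come from it. Single values and correlations were compared by exact two-sided permutation. The fit was tested on simulated data. The number of arrays limits the precision.

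The 10 genes, the 6 lists around them and the 10 marker lists were chosen with earlier results of these data known. Named are the 10 genes, the 5 most and 2 least like their mean, Rictor and Igfbp1, and from each list the genes past the threshold or else the 3 with the smallest p. Fosb, Fosl2, Phlda1, Gadd45g, Id3, Klf2, Srf, Creb1 and C1qa were named after their values were seen. Alternatives were array weights, no trend, a replicate block, other sets of probe sets, other scalings and leaving out arrays. Replicate numbers did not pair the samples: the deviations of same-numbered arrays from their group means had correlations of -0.0790, -0.130, -0.0332 and 0.0784. At most 18 values of an array were identical to those of another.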

Additional observations from a re-analysis of the deposited data

Results flagged for a closer look

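Junb on wild type 1 read 7.48, away from the other 3 wild type livers, which lay between 7.21 and 7.25. The gap to the nearest of them took 0.859 of the range of the group, above Dixon's 95% critical value for 4 samples. Egr1 on the same array had a ratio of 0.828, just below that value. In all 22 groups of values were examined, and chance passes the critical value in about 5% of groups.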

How the results depend on the processing

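Ier2, Ier3 and Btg2 kept their positive direction in all 18 alternatives, and under both other scalings none of the 10 genes changed sign. With array weights 1 of the 10 genes passed (Ier2), 2 had an unadjusted limma p under 0.05, their median difference was 0.15, Jun lay at 0.14, and 673 of all genes passed. Without the arrays numbered 1 of both groups, an alternative chosen after seeing the data, 1 passed (Egr1), 3 had an unadjusted p under 0.05, Myc lay at -0.058, and 1443 genes passed. With 1 array left out, 0 of the 10 passed and 0 to 2 had an unadjusted p under 0.05, while 0 to 838 of all genes passed: 838 without knockout 1 and 93 without wild type 1. The differences then ran from -0.028 to 0.038 for Fos, -0.23 to 0.20 for Jun, -0.043 to 0.11 for Junb, -0.086 to 0.52 for Egr1, -0.034 to 0.12 for Klf6, -0.22 to 0.033 for Dusp1 and -0.030 to 0.15 for Rictor. Without the 2 farthest arrays the correlation of Jun and Junb was 0.49. The cause of these changes was not tested. The replicate block left 0 of the 10 genes past the threshold and 1, Ier2, with an unadjusted p under 0.05 (0.0233), and it changed no adjusted call. Fos has no value with the filter on dim probe sets, since its level is below it. Dim probe sets, Fos above all, limit what these arrays can show.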
